A study of Drosophila melanogaster with 6 samples.

Results

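The JAK/STAT genes described here are the ligand genes upd1, upd2 and upd3, the receptor gene dome, the receptor-like gene et, the kinase gene hop, the transcription factor gene Stat92E and the feedback gene Socs36E. They were chosen by their role in the pathway and found by matching gene identifiers to symbols, and all 8 are among the 17559 genes of the count table. The tissue was the outer proliferation centre, the neuroepithelium in the optic lobe of Drosophila melanogaster larvae from which the medulla develops. Neuroepithelial cells that carried GFP were drawn by glass pipette from late second-instar brains, from the dorsal or the ventral side, and the cells of 3 to 4 brains were pooled for each library. There were 3 dorsal and 3 ventral libraries, and values listed for a group follow the order of replicates 1, 2 and 3. The animals of both groups are labelled female and were raised at 25 °C, no treatment is listed, and no genotype beyond the GFP label is given. The labels do not name the driver behind GFP, so which other cells it marks is not known here.

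Ligands of the Unpaired family are secreted proteins that act like cytokines. They bind the receptor Domeless and activate the Janus kinase Hopscotch, which phosphorylates Stat92E, and Stat92E then enters the nucleus and turns on target genes. Socs36E is one of these targets and in turn dampens the signal, and the receptor-like protein of et also dampens it. In the larval optic lobe the pathway is known for holding neuroepithelial cells back from becoming neuroblasts.

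Counted reads numbered 21114019 to 27815885 per library. For the labelled tissue 8 neuroepithelial genes were read, among them hth, shotgun (shg, E-cadherin), crb and Optix. All 8 were tested, and their levels summed to between 1237 and 1678 CPM (reads scaled to the same library total) across dorsal and between 1175 and 1921 across ventral libraries. The largest part came from hth, at 522 to 1078 CPM over the 6 libraries. Genes listed as markers of other cell types, or of the transition to neuroblasts, were read as well. Summed levels of 6 glial genes were 1172 to 1215 CPM (dorsal) and 984 to 1354 CPM (ventral), most of it from nrv2. Averaged over the 6 libraries, nrv2 stood at 1031 CPM and Eaat1 at 142 CPM. The remaining glial genes were low, with means of 0.996 CPM for repo, 6.25 for wrapper, 4.69 for Gs2 and 6.61 for moody. The glial sum is therefore no measure of the amount of glial RNA. Those of 5 lamina precursor genes were 81.9 to 154 CPM (dorsal) and 96.6 to 120 CPM (ventral), most of it from eya. In dorsal replicate 3, eya stood at 99.5 CPM, while dac, gcm and gcm2 had 1 read each. For 5 genes of neuroblasts or of the transition to them the sum was 772 to 1071 CPM (dorsal) and 911 to 1518 CPM (ventral). The transition gene l(1)sc was a large part of it, at 326, 177 and 399 CPM dorsally and 367, 559 and 298 CPM ventrally. This sum is therefore no measure of neuroblast RNA alone. For 4 neuron genes the sum was 249 to 532 CPM (dorsal) and 338 to 637 CPM (ventral), most of it from elav. The 3 other neuron genes had higher fitted values in ventral libraries, with log2 fold changes of -3.62 for nSyb, -1.74 for brp and -1.29 for Syt1 (unadjusted p = 0.0087, 0.013 and 0.0096, adjusted p = 1.00 for each, edgeR). The groups of brp and Syt1 did not overlap, against 7.26% of all tested genes, and 3.20% of all tested genes had an unadjusted p under 0.05. Those of nSyb overlapped, with 27, 30 and 43 reads dorsally and 1029, 135 and 15 reads ventrally. Most ventral nSyb reads thus came from ventral replicate 1, and ventral replicate 3 lay below every dorsal library. The part of these other cell types in the JAK/STAT values was not tested. lncRNA:roX2, made mainly in males, goes against the female label in most libraries, where the dorsal libraries gave 16000, 7580 and 0 reads and the ventral libraries 6888, 62 and 5680. This bears on the JAK/STAT genes because 6 of the 8 are on the X chromosome and 2 on autosomes. The median log2 fold change (dorsal minus ventral) was -0.00 over 1490 tested X-linked genes and 0.00 over 7217 other genes. Both groups held libraries with many and with few lncRNA:roX2 reads, so an effect on X-linked genes could cancel in these medians.

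The machinery that receives and transmits the signal was read in every library, whereas upd2, upd3 and et were near the limit of detection. Levels per length of exon, in CPM per kilobase (RPKM), are the scale on which genes can be set side by side. Averaged over the 6 libraries, Stat92E stood at 38.8 RPKM, Socs36E at 22.8, hop at 7.67, dome at 4.25, upd1 at 1.18, upd3 at 0.112, et at 0.026 and upd2 at 0.024 RPKM. Among the 8707 genes that passed the filter on low counts, the mean RPKM of Stat92E stood at percentile 73.0, that of Socs36E at 62.4, that of hop at 40.3, that of dome at 30.8 and that of upd1 at 16.2. Not all neighbours in this order were apart. Stat92E exceeded Socs36E in 5 of 6 libraries and their ranges overlapped, at 21.5 to 49.1 and 15.3 to 30.3 RPKM. Socs36E lay above hop without overlap. The level of hop exceeded that of dome in 6 of 6 libraries, although the ranges of 5.77 to 10.5 and 3.19 to 6.53 RPKM overlapped. The lowest dome value lay above the highest upd1 value of 2.77 RPKM. The genes et and upd2 could not be ordered, since 1 read corresponds to 0.035 to 0.049 CPM and each was listed at 0 in 3 libraries.

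**Figure D1:**
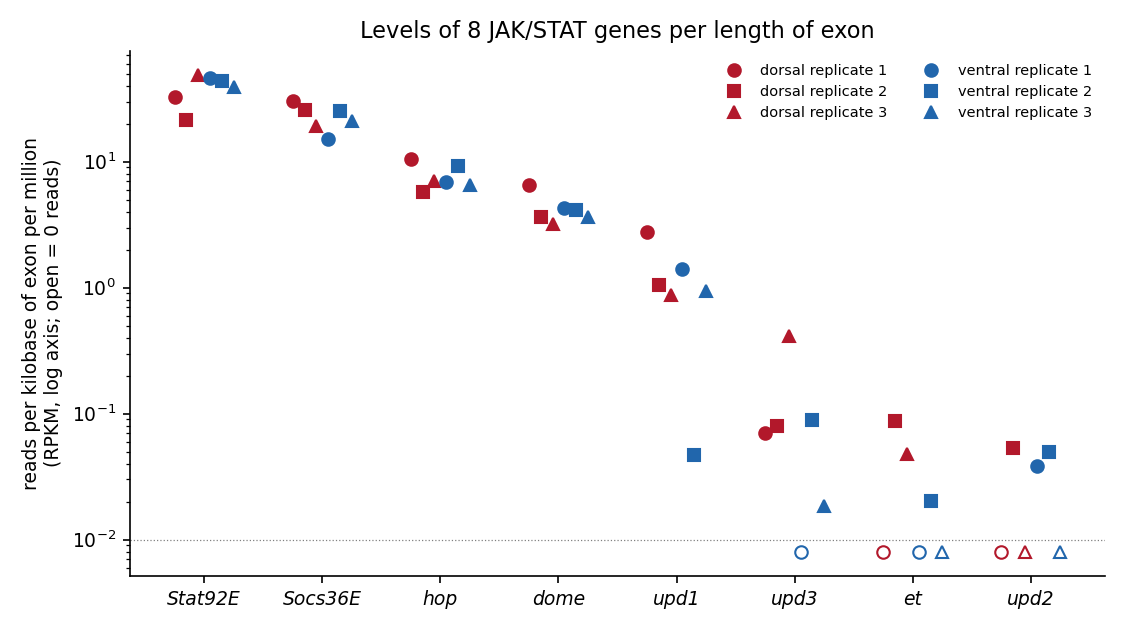
Level of each JAK/STAT gene in CPM per kilobase of exon (RPKM, log axis) in 3 dorsal (red) and 3 ventral (blue) libraries, ordered by mean; open symbols under the dotted line mark libraries with 0 reads. Stat92E and Socs36E were highest, upd1 in ventral replicate 2 lay far below the other 5 upd1 values, and upd2, upd3 and et were at or near 0.

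Among the ligands, nearly all reads came from upd1. The gene upd1 (FBgn0004956, BDGP6 chromosome X, 18305354 to 18309291, minus strand), which encodes the founding ligand of the family, gave 222, 92 and 71 reads in the dorsal libraries. The ventral libraries gave 115, 3 and 71 reads. The dorsal and ventral values overlapped, dorsal replicate 1 was the highest, and ventral replicate 2 stood apart at 3 reads, with an exact Poisson 95% interval of 0.619 to 8.77 reads against 55.5 to 89.6 reads for the next lowest libraries. Scaled to CPM, the dorsal values of 8.66, 3.26 and 2.71 averaged 4.88 ± 3.28 (SD, n = 3), and the ventral values of 4.36, 0.147 and 2.93 averaged 2.48 ± 2.14 (SD, n = 3). The log2 fold change was 0.97 ± 0.96 (SE), with a 95% interval of -1.18 to 3.12 (adjusted p = 1.00, edgeR quasi-likelihood test). This interval runs from 0.443 to 8.68 times the ventral level. With this spread between replicates, a dorsal level several times the ventral one was not excluded. Without dorsal replicate 1 the log2 fold change was 0.26, without ventral replicate 2 it was 0.41, and without ventral replicate 1 it was 1.65. In bulk samples, fewer cells that make a transcript and less of it per cell cannot be told apart.

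The low upd1 count of ventral replicate 2 came with other features of that library. It had 62 reads of lncRNA:roX2, the highest summed level of the 4 neuron genes (637 CPM), none of which was at 0 in any library, and the highest summed level of the 8 neuroepithelial genes (1921 CPM). Dorsal replicate 3 had 0 reads of lncRNA:roX2 and yet 71 reads of upd1, as many as ventral replicate 3 with 5680 reads of lncRNA:roX2. In ventral replicate 2 most of the neuron sum was elav (583 CPM), and most of the neuroepithelial sum was hth (1078 CPM). The neuron gene nSyb was highest in ventral replicate 1, at 39.0 CPM against 6.63 CPM in ventral replicate 2. The part of these features in the upd1 value was not tested. With the level of lncRNA:roX2 as a covariate, the log2 fold change of upd1 was 1.43 ± 0.99 (SE; adjusted p = 1.00, edgeR).

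The other two ligand genes lie beside upd1. From upd2 (FBgn0030904, X, 18240654 to 18243284, minus strand) over upd3 (FBgn0053542, X, 18277233 to 18284596, plus strand) to upd1, the cluster spans 68638 bp. For upd2 the dorsal libraries gave 0, 3 and 0 reads and the ventral libraries 2, 2 and 0. A count of 0 allows up to 3 reads, which is 0.115 to 0.124 CPM for upd2, so no difference between the groups was detectable at this depth. The gene upd3, whose product is known in flies as a signal of damaged tissue and blood cells, gave 4, 5 and 24 reads dorsally and 0, 4 and 1 reads ventrally. Dorsal replicate 3 was the highest and the groups overlapped (two-sided exact permutation p = 0.30 on CPM, where 0.10 is the smallest that 3 against 3 libraries allow). Neither upd2 nor upd3 passed the filter on low counts.

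Blood cell RNA was looked for beside the upd3 value. The blood cell gene Hemese (He) had 22 reads in dorsal replicate 3, 15 in ventral replicate 3, 1 in ventral replicate 1 and 0 in the 3 others. The other 4 blood cell genes did not peak in dorsal replicate 3. Hml had 5 to 12 reads per library and srp 1 to 5. NimC1 gave 3, 4 and 3 reads dorsally and 12, 10 and 6 ventrally, and Pxn 7, 2 and 6 dorsally and 15, 3 and 4 ventrally. The 5 blood cell genes together had 21, 20 and 37 reads dorsally and 34, 23 and 34 ventrally, or 0.708 to 1.41 CPM and 1.13 to 1.40 CPM. With the muscle genes Mhc and Act57B, which made up most of it, the sum over 7 genes was 4.33 to 7.76 CPM (dorsal) and 3.10 to 11.8 CPM (ventral). Their part in the upd3 count was not tested.

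Of all ligand reads, 574 of 619 were of upd1, or 92.7% (exact Clopper-Pearson 95% interval 90.4 to 94.6%, counting error only). By library the share was 98.2%, 92.0% and 74.7% on the dorsal side. On the ventral side it was 98.3%, 33.3% and 98.6%. The lowest share rests on 9 ligand reads in ventral replicate 2, and its interval is 7.49 to 70.1%. Per length of exon the dorsal share was 84.7 ± 15.3% and the ventral share 73.6 ± 41.7% (SD, n = 3), a difference smaller than the spread between replicates (two-sided exact permutation p = 0.90). Without ventral replicate 2 the direction turned, with a ventral share of 97.7 ± 0.515% (n = 2) and a difference of -13.0 percentage points (exact permutation p = 0.30).

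**Figure D2:**
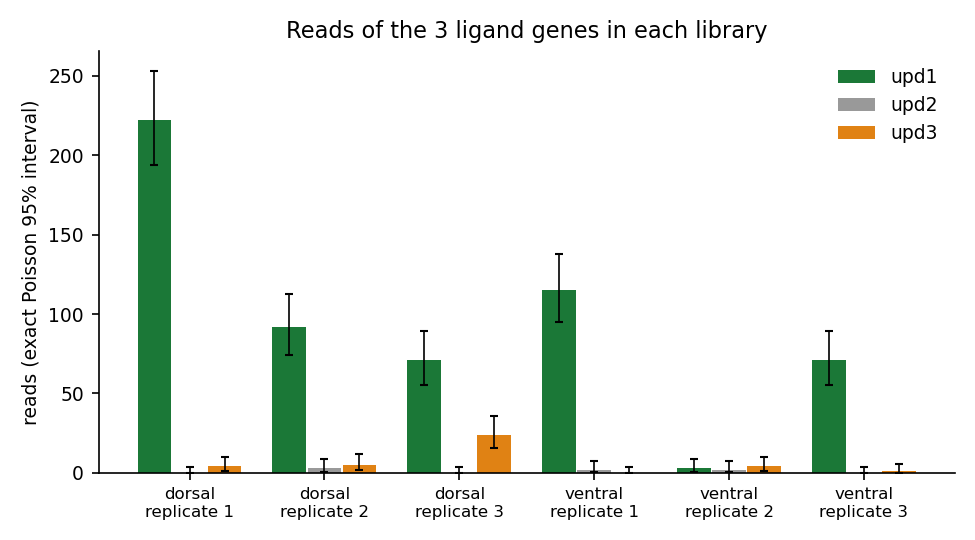
Reads of upd1, upd2 and upd3 in each library, with exact Poisson 95% intervals that cover counting error only. upd1 had 71 to 222 reads in 5 libraries and 3 in ventral replicate 2, and upd3 had 24 reads in dorsal replicate 3 and at most 5 elsewhere.

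The receptor gene dome was read in all libraries and its neighbour et was close to absent. The gene dome (FBgn0043903, X, 19676061 to 19683518, minus strand) had dorsal levels of 31.8, 17.9 and 15.6 CPM and ventral levels of 21.0, 20.2 and 17.8 CPM. The ventral libraries lay within the dorsal range, whose upper end is dorsal replicate 1. Its log2 fold change was 0.14 ± 0.31 (95% interval -0.54 to 0.83, adjusted p = 1.00, edgeR), which bounds the dorsal level between 0.686 and 1.78 times the ventral level. Its sign rested on 1 library, since without dorsal replicate 1 the log2 fold change was -0.24.

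The gene et (FBgn0031055, X, 19672312 to 19675891, minus strand) lies beside dome on the same strand, 169 bp from it. The dorsal libraries gave 0, 6 and 3 reads and the ventral libraries 0, 1 and 0, and et did not pass the filter on low counts. Of the reads of both genes, 10 of 3135 were of et, or 0.319% (exact 95% interval 0.153 to 0.586%). Per length of exon, et held 1.27 ± 1.19% of the summed level of the pair dorsally and 0.163 ± 0.282% ventrally (SD, n = 3, two-sided exact permutation p = 0.40). Exons of et share 42 bp with the gene Zw on the opposite strand, and since it is not given whether counting used strand, reads in that stretch cannot be assigned with certainty. No exon of the other 7 JAK/STAT genes overlaps an exon of another annotated gene.

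The kinase gene hop had the smallest difference between group means of the 5 tested genes. The gene hop (FBgn0004864, X, 11360930 to 11368098, minus strand) had dorsal levels of 53.1, 29.2 and 35.6 CPM and ventral levels of 34.6, 46.9 and 33.2 CPM. The groups overlapped over most of their range, at 39.3 ± 12.4 and 38.2 ± 7.52 CPM (SD, n = 3). The log2 fold change was 0.04 ± 0.27, with a 95% interval of -0.55 to 0.63 (adjusted p = 1.00, edgeR).

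Stat92E, the single STAT of the fly, was the most abundant of the pathway genes. Stat92E (FBgn0016917, chromosome 3R, 20535323 to 20552311, minus strand) had dorsal levels of 171, 112 and 256 CPM and ventral levels of 238, 229 and 205.1 CPM. The ventral libraries were close together and lay between the dorsal values, of which replicates 1 and 2 were lower and replicate 3 higher. The means were 180 ± 72.2 and 224 ± 17.2 CPM (SD, n = 3), and the log2 fold change was -0.32 ± 0.27, with a 95% interval of -0.91 to 0.27 (adjusted p = 1.00, edgeR). The fitted value depended on the dorsal libraries. It was -0.67 without dorsal replicate 3 (unadjusted p = 0.0213, adjusted p = 1.00, edgeR) and -0.07 without dorsal replicate 2.

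Socs36E (FBgn0041184, chromosome 2L, 18138675 to 18152417, minus strand), the target and inhibitor of the pathway, had dorsal levels of 106, 89.4 and 67.1 CPM. Its ventral levels were 53.5, 88.4 and 74.3 CPM. Dorsal replicate 1 was the highest and ventral replicate 1 the lowest, while the other 4 libraries lay between them. The log2 fold change was 0.28 ± 0.24, with a 95% interval of -0.26 to 0.82 (adjusted p = 1.00, edgeR). Set against Stat92E within each library, the RPKM of Socs36E was 0.921, 1.19 and 0.390 times that of Stat92E on the dorsal side. On the ventral side the ratio was 0.334, 0.573 and 0.539. Dorsal replicates 1 and 2 had the highest ratios and dorsal replicate 3 fell among the ventral libraries, so the group means of 0.832 ± 0.405 and 0.482 ± 0.130 (SD, n = 3) did not differ beyond the spread (two-sided exact permutation p = 0.30, a ratio chosen after the values were seen).

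**Figure D3:**
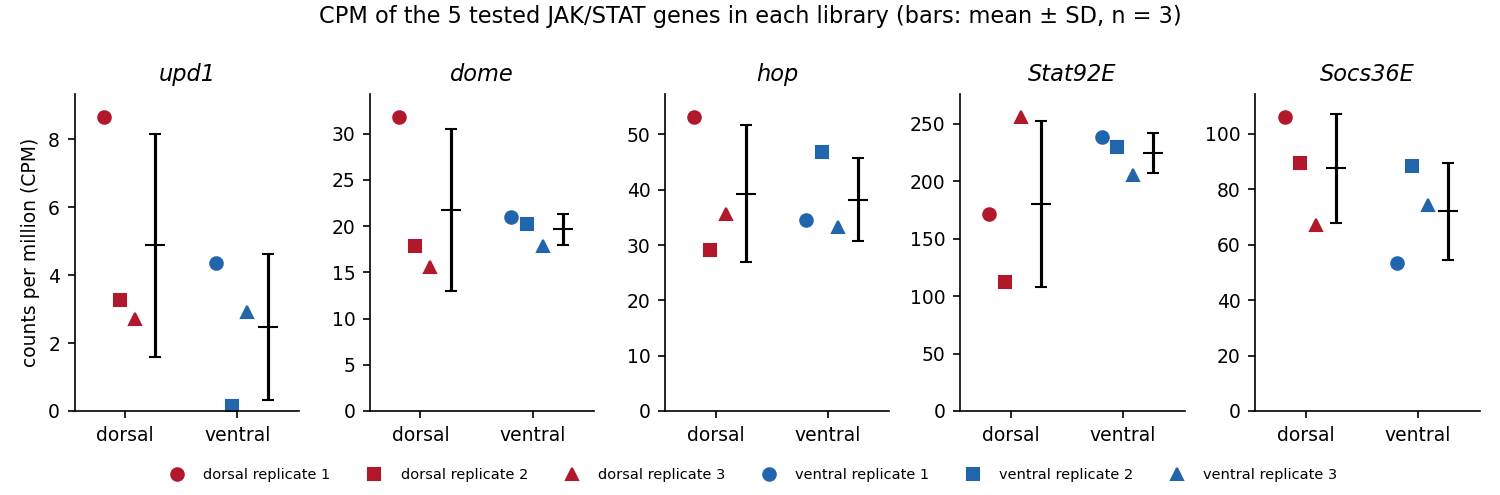
CPM of the 5 JAK/STAT genes that passed the filter on low counts, in 3 dorsal (red) and 3 ventral (blue) libraries, with the mean and SD of each group beside the points and each axis starting at 0. Dorsal and ventral points overlap for every gene, and dorsal replicate 1 holds the highest value of upd1, dome, hop and Socs36E.

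The comparison of dorsal with ventral cells asks whether these genes separate the sides of the neuroepithelium. None of the 5 tested JAK/STAT genes was called in either direction at an adjusted p under 0.05, and none had an unadjusted p under 0.05 (edgeR quasi-likelihood test). The background was 0.0919% of 8707 tested genes called, 0.0230% toward dorsal and 0.0689% toward ventral. DESeq2 also called 0 of these genes, against 0.495% of the 9701 genes it adjusted. Calls by limma-voom and limma-trend were 0 as well, against 11 and 8 genes in all. None of the 5 had groups that did not overlap in CPM, against 7.26% of all tested genes (4.09% with dorsal higher and 3.17% with ventral higher). With so low a background, a count of 0 among 5 genes says little, and the intervals are the firmer statement. For dome, hop, Stat92E and Socs36E they leave room for dorsal levels between 0.532 times (Stat92E) and 1.78 times (dome) the ventral level. The median log2 fold change of the 5 genes was 0.14, against 0.00 over all tested genes, and 4 of 5 had the higher fitted value in dorsal cells, against 50.3% of all tested genes. Those 4 (upd1, dome, hop and Socs36E) were all highest in dorsal replicate 1. Without that library the log2 fold changes of dome and hop were -0.24 and -0.25, so the count is no dorsal lean of the pathway.

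Spread between replicates was widest for upd1 among the tested pathway genes. Its within-group SD of log2 CPM was 1.76, at percentile 96.2 of all tested genes. Ventral replicate 2 carried much of it, and without that library the SD was 0.69, at percentile 80.1. The corresponding SD was 0.40 for dome, 0.37 for hop, 0.43 for Stat92E and 0.35 for Socs36E, at percentiles 57.3, 52.9, 61.0 and 50.3. The median over all tested genes was 0.35.

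Genes that regulate the pathway or act with its proteins were read on both sides. All 17 genes of this list were tested and none was called in either direction (edgeR, and 0 by DESeq2). The shares over all genes were 0.0919% (edgeR) and 0.495% (DESeq2), so a count of 0 among 17 is no result about the regulators. There was 1 unadjusted p under 0.05, against 3.20% of all tested genes. Of the 17, 7 had higher fitted values in dorsal and 10 in ventral cells, with a median log2 fold change of -0.04. The gene of the heterochromatin protein HP1, which binds Stat92E, had the highest CPM, with 1128 ± 116 CPM dorsally and 1023 ± 96.1 CPM ventrally (SD, n = 3). The endosomal sorting gene TSG101 stood at 193 ± 14.5 and 215 ± 7.18 CPM. The gene with the unadjusted p under 0.05 was apontic (apt), which restrains Stat92E activity in border cells of the fly ovary. Its dorsal levels were 141, 207 and 121 CPM and its ventral levels 403, 207 and 207 CPM, so that ventral replicate 1 was far above the rest and the groups overlapped. Its log2 fold change was -0.80 ± 0.30 (adjusted p = 1.00, edgeR). Cyclin D (CycD), a cell cycle protein reported to bind Stat92E, followed by size of p, at 123 ± 17.2 and 153 ± 13.6 CPM (log2 fold change -0.31 ± 0.18, adjusted p = 1.00, edgeR).

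In 3 of the 17 the groups did not overlap, against 7.26% of all tested genes, and none of the 3 was called. The phosphatase gene Ptp61F, a negative regulator of Hopscotch and Stat92E, had 102 ± 0.762 CPM dorsally and 125 ± 17.3 CPM ventrally (SD, n = 3). Su(var)2-10, the PIAS gene of the fly and an inhibitor of Stat92E, stood at 228 ± 5.90 and 261 ± 19.3 CPM. Socs16D, a relative of Socs36E, went the other way, at 18.0 ± 1.70 and 14.1 ± 1.52 CPM. Their log2 fold changes were -0.29 ± 0.17, -0.19 ± 0.15 and 0.35 ± 0.26 (adjusted p = 1.00 for each, edgeR). Ptp61F and Socs16D were named after their values were seen.

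Genes known as targets of Stat92E in other fly tissues ranged from abundant to barely read. Of 13 such genes 6 passed the filter, none was called in either direction (edgeR, and 0 by DESeq2) against 0.0919% of all tested genes, and none had an unadjusted p under 0.05 against 3.20%. At such rates counts of 0 among 6 genes are no result about the targets. Among the 6, 2 had the higher fitted value in dorsal and 4 in ventral cells, with a median log2 fold change of -0.15. The timing factor gene chinmo had 333 ± 65.3 CPM dorsally and 343 ± 96.0 CPM ventrally, and Diap1, an inhibitor of cell death, had 255 ± 40.6 and 315 ± 78.8 CPM (SD, n = 3). The zinc finger gene zfh1 stood at 12.1 ± 7.25 and 14.4 ± 4.28 CPM. The apical polarity gene crb, which is also in the neuroepithelial list, stood at 30.6 ± 10.05 and 21.9 ± 5.80 CPM (log2 fold change 0.48 ± 0.31). The POU factor gene vvl had the smallest p of the list, with dorsal levels of 3.00, 6.20 and 3.33 CPM and ventral levels of 3.18, 10.2 and 16.98 CPM. Ventral replicate 3 was highest and ventral replicate 1 lay among the dorsal libraries (log2 fold change -1.28 ± 0.62, adjusted p = 1.00, edgeR). The stress-induced genes TotA, TotC, TotM and TotX, which respond to the pathway in the fat body, had at most 4 reads in any library.

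**Figure D4:**
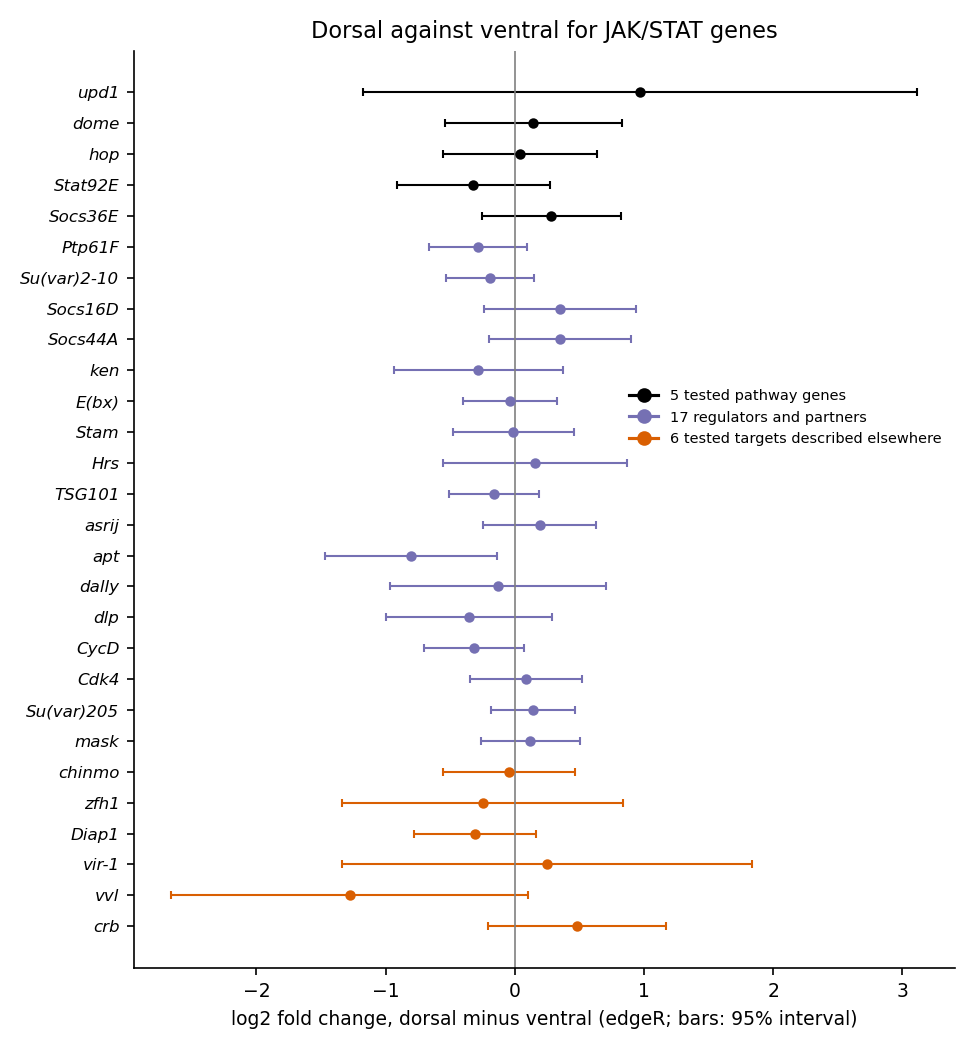
Log2 fold change (dorsal minus ventral) with its 95% interval from the edgeR fit for the 5 tested JAK/STAT genes (black), 17 regulators and partners (violet) and 6 tested targets described in other tissues (orange). The interval of upd1 is the widest of the black ones, from -1.18 to 3.12, and that of apt is the sole one that does not reach 0 before adjustment.

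Patterns across the 6 libraries were matched to those of 6039 other genes with a mean of at least 10 CPM, by Pearson correlation of log2 CPM, as a description. The genes most like upd1 were Arp8 (r = 0.995) and Abcd3 (r = 0.987), both lowest in ventral replicate 2 and highest in dorsal replicate 1. Most like dome were cdi and LRR (r = 0.99 for both), and most like hop were Rtel1 and PolQ (r = 0.99 for both). Most like Stat92E were ari-1 and Fancm (r = 0.99 for both). Most like Socs36E were NetB (r = 0.98) and Srrm234 (r = 0.97). Of the 6039 genes, 201 reached an r above 0.9 with upd1 and 28 with Stat92E. With 6 points and so many genes compared, such values show no link by themselves. Nor do they speak to the size of a change: upd1 ran from 0.147 to 8.66 CPM and Arp8 from 9.87 to 21.2 CPM.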

How the data were processed

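The authors deposited raw read counts per gene, as whole numbers with no scaling. They also deposited normalized counts, a signal scale in which each library's counts are divided by a single factor (0 values off by more than 0.01 reads). Trimmomatic, featureCounts and DESeq2 and the builds dm6 and BDGP6 are named in the submitters' processing notes. The sources used here name neither the aligner, nor versions, nor whether counting used strand. Libraries were made from polyadenylated RNA with SMART-Seq v4 and Nextera XT kits, per the labels' protocols.

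Symbols, positions and exon lengths came from a BDGP6 annotation, in which 17253 of 17559 identifiers had a symbol. Samples were grouped by title. The main test was edgeR's robust quasi-likelihood test (version 4.0.16, R 4.3.3) on the 8707 genes kept by filterByExpr, with TMM factors, group as the sole term and Benjamini-Hochberg adjustment over all of them. The SE was derived from the fold change and its F statistic, and 95% intervals use the fit's degrees of freedom. CPM and RPKM use TMM-scaled library sizes. The pathway genes, lists and tests were chosen with earlier results of these data known. Named genes were the 8 pathway genes, the 4 with the highest mean CPM and the 2 of smallest p of the regulator and target lists, and the 2 genes most like each tested pathway gene. The fits were also run on simulated counts in which no library was set apart from its group, and the outcome is not reported here.

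The alternatives comprised other scalings (RLE, upper quartile, library size alone), other filters on low counts, DESeq2 1.42.0, limma 3.58.1 (voom with sample weights, and trend on log2 of the deposited normalized counts plus 1), a threshold of 0.1, the replicate number as a block, lncRNA:roX2 as a covariate, and libraries left out. Each library pools brains, and the labels do not say whether replicates were taken separately, so a p-value covers only how far these pooled samples vary. Intervals on reads (scipy 1.17.1) reflect counting error alone: the reads carry no molecular identifiers and are not independent molecules. All pairs of libraries differed by more than sampling noise.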

Additional observations from a re-analysis of the deposited data

How the results depend on the processing

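No JAK/STAT gene was called in either direction under any of 18 alternatives to the main dorsal against ventral test, and the adjusted p-values of the 5 tested genes lay between 0.923 and 1.00 in them. Over all genes, 8 were called in the main test, 13 with no filter on low counts, 48 with DESeq2, 4 to 9 with 1 library left out and 3 when both ventral replicates 1 and 2 were omitted, a fit in which the spread of the remaining ventral library is taken from the dorsal group; the cause was not tested. The log2 fold changes of upd1, Stat92E and Socs36E kept their sign in all 18, at 0.26 to 1.66, -0.67 to -0.07 and 0.10 to 0.45. The alternative with a threshold of 0.1 reuses the main fit, so its fold changes could not differ. Leaving out 1 library at a time gave -0.24 to 0.33 for dome and -0.25 to 0.22 for hop, and limma-trend gave -0.0049 for hop; each negative value was smaller than its own SE, and the cause of the sign changes was not tested. Without ventral replicate 2, a setting chosen after seeing the data, the within-group SD of upd1 went from 1.76 to 0.69. The upd1 share of the ligand level, 11.0 percentage points higher in dorsal, ranged from -13.0 to 23.3 points with 1 library left out and was negative without ventral replicate 2. The deviations of same-numbered libraries from their group means had correlations of 0.0029, -0.038 and 0.059. Differently numbered libraries ranged from -0.108 to 0.107. The labels do not say whether the numbers pair the samples, and so few libraries cannot settle it. With the replicate block, no JAK/STAT gene was called, 7 genes were called in all, and the log2 fold changes were 1.498 for upd1, 0.07 for dome, 0.01 for hop, -0.40 for Stat92E and 0.28 for Socs36E. Depth limits upd2, upd3 and et, which had at most 24 reads in any library, so that their comparisons are imprecise.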
